A study of Homo sapiens with 8 samples.

Results

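The platelet-derived growth factor (PDGF) genes were taken as 1 group: the 4 ligand genes *PDGFA*, *PDGFB*, *PDGFC* and *PDGFD*, the receptor genes *PDGFRA* and *PDGFRB*, and the receptor-like gene *PDGFRL*. These are 7 of the 58051 genes counted, and all 7 passed the filter on low counts. They were chosen by family name, and the family itself was selected on its measured levels and its measured change between culture with and without serum in these same libraries. The levels and changes of the 7 genes are therefore a description and not a test. Where the number past a threshold is given for them, it is set beside the share of all genes and supports nothing.

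RNA was sequenced from A375, an established human melanoma line, as 4 lines named WT1 to WT4 and labelled wild type, which in this study means that *NECTIN1* was not inactivated. Each line was cultured for 12 h in DMEM with 10% fetal bovine serum (serum) or in DMEM without it (serum-free), which gives 8 libraries, 1 per line and condition. The labels give no added allele or drug in either group. All 4 lines derive from the A375 line of 1 tumour, and whether each is a clone is not given in the sources used here. The question was how A375 cells respond to the loss of serum.

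PDGF ligands are secreted as disulfide-linked dimers and bind 2 receptor tyrosine kinases, PDGFRA and PDGFRB, which dimerise and phosphorylate each other. PDGF-A and PDGF-B are cut to their active form by furin-like enzymes inside the cell, whereas PDGF-C and PDGF-D carry a CUB domain that is removed by proteases outside it. In tissue the receptors mark mesenchymal cells such as fibroblasts and pericytes, serum is itself a source of PDGF, and PDGFRB is known in melanoma as a receptor raised in cells resistant to BRAF inhibitors. PDGFRL resembles the extracellular part of a PDGF receptor and has no kinase.

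Each library held between 29759279 and 73341551 counts on genes. The serum libraries of WT1 and WT2 stood apart in their share of alignments at several places, 22.7% and 16.8%, against 5.73% to 10.1% in the other 6. Of the markers of a melanocyte lineage, *MITF* was present at 30.1 to 44.2 CPM (counts scaled to library size) and *SOX10* had 0 counts in all 8 libraries, whereas the undifferentiated melanoma markers *AXL* and *TNC* reached at least 308.5 and 762 CPM in every library. Of these lists *MITF* alone was past the threshold (edgeR adjusted p under 0.05 over all tested genes), falling from 40.1 to 33.1 CPM on average without serum. With the line as a block, a fit that compares the 2 libraries of each line, *DCT* and *AXL* were past it as well, both downward. The files of the line labelled WT4 carry another name, so its identity rests on the labels.

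The promoters of the receptor genes are shown because *PDGFRB* and *PDGFRA* were the members whose serum and serum-free libraries did not overlap. Each window, from RefSeq on GRCh38.p14, holds 250 bases before and 50 after an annotated start, 5′ to 3′ on the gene's strand. Capitals mark the letters of a CCAAT box (CCAAT) or a GC box (GGGCGG), on either strand. The *PDGFRA* gene has an upstream and a downstream start in the table, and both are given.
PDGFRB, chr5:150155796-150156095, minus strand: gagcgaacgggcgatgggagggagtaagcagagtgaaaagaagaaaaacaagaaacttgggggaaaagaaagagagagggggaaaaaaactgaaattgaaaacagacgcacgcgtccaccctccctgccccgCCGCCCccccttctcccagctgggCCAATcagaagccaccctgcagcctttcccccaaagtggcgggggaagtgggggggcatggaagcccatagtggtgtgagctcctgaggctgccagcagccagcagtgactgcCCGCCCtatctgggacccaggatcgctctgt
PDGFRA upstream start, chr4:54229043-54229342, plus strand: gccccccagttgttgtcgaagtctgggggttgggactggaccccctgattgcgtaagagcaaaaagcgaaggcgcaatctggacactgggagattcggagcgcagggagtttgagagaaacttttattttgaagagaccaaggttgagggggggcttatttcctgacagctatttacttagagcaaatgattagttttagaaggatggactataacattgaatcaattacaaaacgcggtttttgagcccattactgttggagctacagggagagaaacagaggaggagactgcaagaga
PDGFRA downstream start, chr4:54233710-54234009, plus strand: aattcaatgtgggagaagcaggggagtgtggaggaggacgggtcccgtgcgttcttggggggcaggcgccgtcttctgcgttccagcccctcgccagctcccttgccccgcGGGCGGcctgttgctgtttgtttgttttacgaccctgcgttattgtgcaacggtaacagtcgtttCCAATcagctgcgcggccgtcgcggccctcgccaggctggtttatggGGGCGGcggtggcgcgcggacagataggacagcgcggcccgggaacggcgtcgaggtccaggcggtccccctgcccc

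The *PDGFRB* window had a CCAAT box beginning at -94 from the start and GC boxes at -118 and 20. The downstream *PDGFRA* window held the same kinds of letters, a CCAAT box at -74 and GC boxes at -139 and -27, and no match overlapped one of another kind. The upstream *PDGFRA* window had none of them, and its GC content was 47.0%, against 66.7% downstream and 59.3% in *PDGFRB*. Over 35116 promoter windows of this length, 34.6% held a CCAAT box and 45.0% a GC box, so both are common. TATA box (TATAAA), forkhead (GTAAACA), AP-1 (TGACTCA) and E-box (CACGTG) letters were found in 11.5%, 3.42%, 4.95% and 7.26% of all windows, and in none of the 8 windows of the 4 members read (*PDGFA*, *PDGFD*, *PDGFRA* and *PDGFRB*). A match of letters is a description and does not show that a factor binds there. The windows of *PDGFB*, *PDGFC* and *PDGFRL* were not analysed here.

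*PDGFRB* RNA was higher without serum in every line, at nearly the same level from line to line. *PDGFRA* was also higher in every line, from the lowest level of the 7 genes. Levels are given in RPKM, reads per kilobase of merged exon after scaling each library to its size by TMM. In bulk RNA, fewer cells of a type and less RNA per cell cannot be told apart.

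*PDGFRB* (ENSG00000113721, GRCh38 chr5:150113839-150155845) encodes the receptor that binds PDGF-B and PDGF-D. With serum its level was 0.943, 0.850, 0.962 and 0.977 RPKM in WT1 to WT4. Without serum it was 2.41, 2.58, 2.36 and 2.02 RPKM in the same lines. All 4 serum-free libraries lay above all 4 serum libraries, and WT4 had the smallest rise. The rise was larger than the spread between lines, as the mean level went from 0.933 ± 0.0569 to 2.34 ± 0.236 RPKM (SD, n = 4). No line stood apart, with a ratio of serum-free to serum of 2.56, 3.04, 2.45 and 2.07 in WT1 to WT4. It was also among the members with the larger changes: the fitted log2 fold change was 1.33 ± 0.11 (SE), and 2% of the tested genes had a larger one. These rest on 198 to 1410 counts per library, the most counts on average of any member.

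*PDGFRA* (ENSG00000134853, GRCh38 chr4:54229293-54298245) encodes the receptor for PDGF-A, PDGF-B and PDGF-C. With serum it stood at 0.0804, 0.0653, 0.0514 and 0.0996 RPKM in WT1 to WT4, on 29, 41, 21 and 27 counts. Serum-free libraries held 0.253, 0.182, 0.145 and 0.422 RPKM, on 102, 133, 54 and 227 counts. The groups did not overlap, and WT4 was the highest line in both conditions. Its ratio of serum-free to serum was 3.15, 2.79, 2.83 and 4.24 in WT1 to WT4, and the fitted log2 fold change was 1.77 ± 0.36 (SE). Without the serum-free library of WT4 it was 1.40, and without both libraries of WT1 it was 1.81. The level stayed low: even without serum the mean of 0.251 RPKM lay at the 12.9th percentile of tested genes. Of the merged exons of *PDGFRA*, 16.1% are shared with a read-through gene on the same strand that has 0 counts in all libraries, so reads there could have been set aside as ambiguous. With the other exon bases as length, its mean level was 0.0884 RPKM with serum and 0.299 RPKM without.

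*PDGFRL* (ENSG00000104213), the gene without a kinase, had a highest to lowest ratio over lines of 3.15 with serum, against 1.94 for *PDGFRA* and 1.15 for *PDGFRB*. Without serum the ratio was 1.58, between that of *PDGFRB* (1.28) and that of *PDGFRA* (2.91). Its level with serum was 0.460, 0.157, 0.328 and 0.495 RPKM in WT1 to WT4, and without serum 0.597, 0.465, 0.732 and 0.462 RPKM. It was higher without serum in WT1, WT2 and WT3 and lower in WT4, and the groups overlapped. The fitted log2 fold change was 0.67 ± 0.35 (SE), on 25 to 86 counts per library. With the line as a block it was 0.74 ± 0.29. Without the serum library of WT2 the fit without a block gave 0.40. Its exons share 11.4% of their bases with *MTUS1* on the opposite strand, which had 414 to 1052 counts. The strand setting of the counts is not given in the sources used here.

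**Figure D1:**
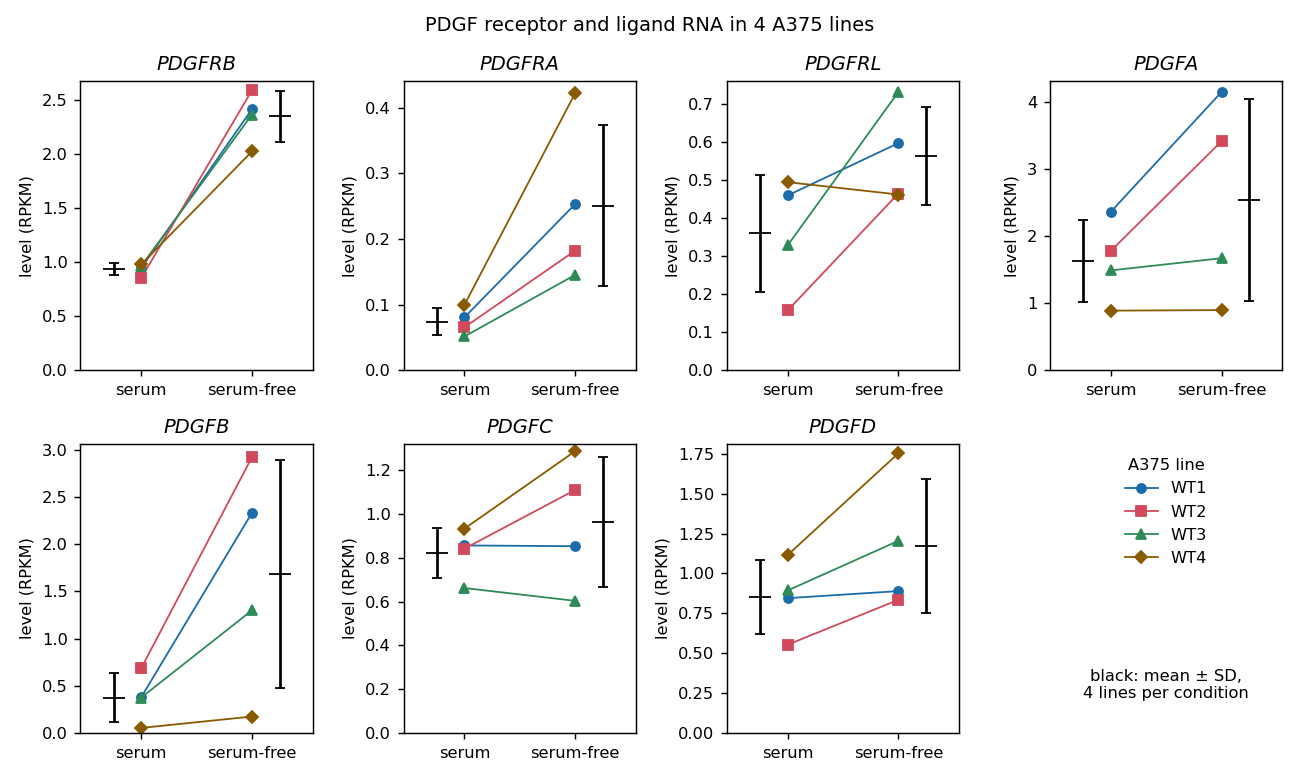
Level of each PDGF gene in RPKM (vertical axes start at 0, 1 scale per gene) with serum and serum-free, with a line joining the 2 libraries of each A375 line and black marks for mean ± SD over 4 lines. The *PDGFRB* lines run together from 0.933 to 2.34 RPKM on average, whereas the *PDGFA* and *PDGFB* lines are spread, with WT4 lowest.

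Among the ligands, *PDGFB* had the largest fitted change of the 7 genes and the widest spread between lines. *PDGFA* and *PDGFD* were also higher without serum in every line, by smaller ratios, and *PDGFC* was higher in 2 of 4 lines.

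*PDGFB* (ENSG00000100311, GRCh38 chr22:39223359-39244982) encodes the ligand that binds both receptors. With serum, WT1 to WT4 had 0.378, 0.686, 0.374 and 0.0529 RPKM, on 57, 180, 64 and 6 counts. Without serum they had 2.33, 2.92, 1.30 and 0.173 RPKM, on 393, 892, 202 and 39 counts. Every line was higher without serum, by ratios of 6.17, 4.26, 3.47 and 3.28 in WT1 to WT4, yet the groups overlapped because serum-free WT4 lay below 3 of the serum libraries. The highest line was 13.0 times the lowest with serum and 16.9 times without. The log2 fold change was 2.14 ± 0.88 (SE) without a block and 2.14 ± 0.17 with the line as a block. Leaving out libraries gave 1.73 (without serum-free WT2) to 2.61 (without serum WT2) in the fit without a block.

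*PDGFA* (ENSG00000197461, GRCh38 chr7:497258-520700), whose product binds PDGFRA, had the highest mean level of the 7, although without serum *PDGFRB* was higher in WT3 and WT4. Its level was 2.37, 1.78, 1.49 and 0.890 RPKM with serum and 4.16, 3.42, 1.67 and 0.898 RPKM without, in WT1 to WT4. The order of the lines was the same in both conditions. The ratio was 1.76 in WT1 and 1.92 in WT2, and 1.12 in WT3 and 1.01 in WT4, so the first 2 lines held most of the difference. Its log2 fold change was 0.63 ± 0.49 (SE), and 0.54 ± 0.14 with the block. Without the serum-free library of WT1 the fit without a block gave 0.29.

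*PDGFD* (ENSG00000170962, GRCh38 chr11:103907189-104164147), a CUB-domain ligand of PDGFRB, stood at 0.845, 0.553, 0.893 and 1.12 RPKM with serum and at 0.889, 0.834, 1.20 and 1.75 RPKM without. The ratios were 1.05, 1.51, 1.35 and 1.57 in WT1 to WT4, all above 1. The groups overlapped, and the log2 fold change was 0.47 ± 0.28 (SE), and 0.45 ± 0.14 with the block. Without the serum-free library of WT4 the fit without a block gave 0.20.

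*PDGFC* (ENSG00000145431, GRCh38 chr4:156760454-156971799), the other CUB-domain ligand, had the smallest fitted change. It had 0.857, 0.842, 0.662 and 0.933 RPKM with serum and 0.853, 1.11, 0.603 and 1.29 RPKM without. WT2 and WT4 were higher without serum and WT1 and WT3 lower. The log2 fold change was 0.23 ± 0.23 (SE), and 0.20 ± 0.13 with the block. Without the serum-free library of WT4 it was 0.06, and without that of WT3 0.39.

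**Figure D2:**
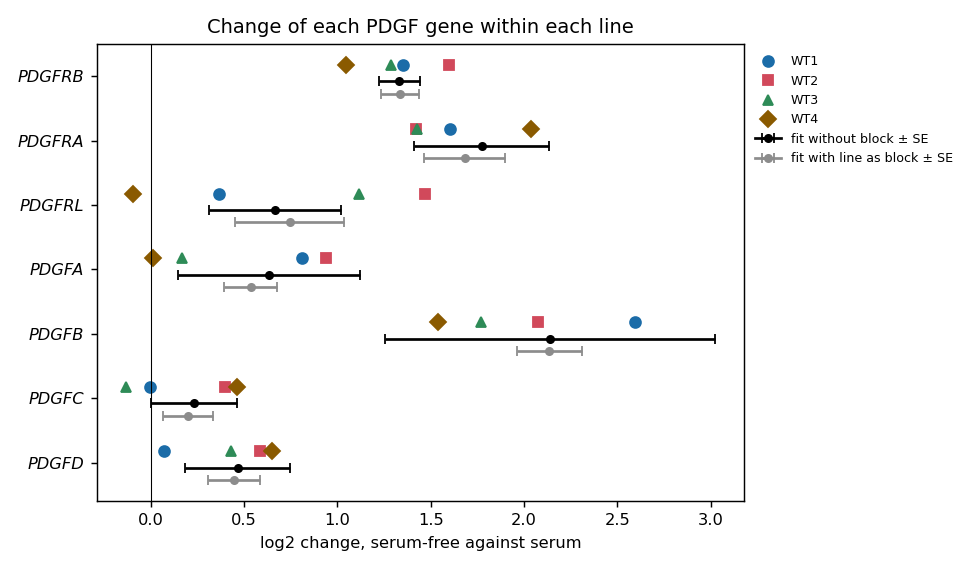
Log2 change of each gene from serum to serum-free within each of the 4 lines (coloured points), with the fitted log2 fold change ± SE without a block (black) and with the line as a block (grey). All points of *PDGFRB*, *PDGFRA* and *PDGFB* lie at 1.04 or above, and the black bar of *PDGFB* is far wider than its grey one.

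In the fit without a block, 2 of the 7 genes (*PDGFRA* and *PDGFRB*) were past an adjusted p of 0.05, beside 25.1% of all 17671 tested genes in either direction and 11.1% higher without serum. Leaving out line WT1 ended this for *PDGFRA*, which left 1 of 7, beside 1589 of 18104 tested genes. Leaving out line WT4 added *PDGFB*, which gave 3 of 7, beside 5631 of 17756. With the line as a block 6 of 7 were past it, *PDGFC* being the exception, beside 45.7% and 23.2% of tested genes. With the GC correction added to the block, 5 of 7 were, *PDGFRL* no longer among them, beside 8153 of 17671 tested genes. The groups did not overlap for 2 of 7, against 12.6% of tested genes with all 4 serum-free libraries above all 4 serum libraries. The rule used this contrast, so nothing is read from these counts. Of the 7 genes, 5 were higher in all 4 lines (28.8% of tested genes were), and the median log2 fold change was 0.67, beside 0.03 over all tested genes.

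**Figure D3:**
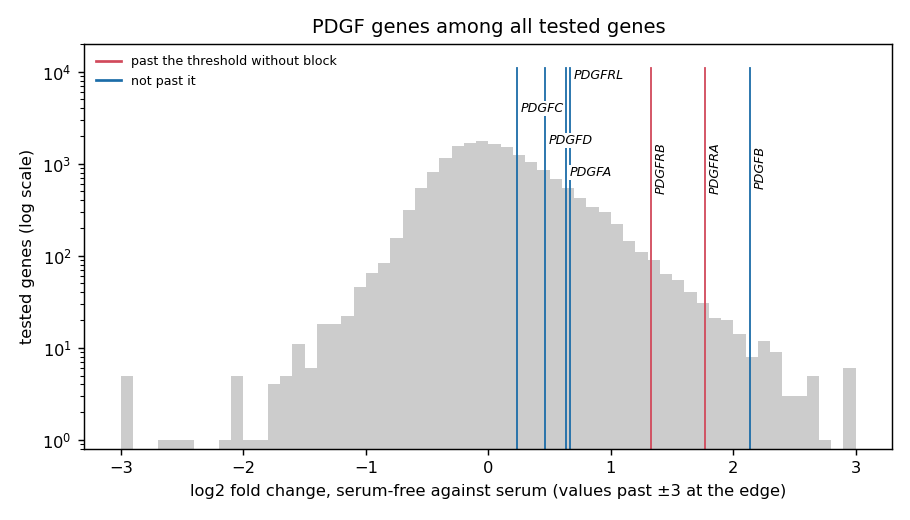
Number of tested genes (log scale) by fitted log2 fold change of serum-free against serum, with a vertical line for each PDGF gene, red where past the threshold without a block and blue where not. All 7 lines are right of 0, from *PDGFC* at 0.23 to *PDGFB* at 2.14.

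The change also moved with base composition over all genes, with a Spearman rho of 0.358 between transcript GC content and log2 fold change over 17425 genes, which are not independent replicates. Among the members, *PDGFB* (60.6%), *PDGFA* (57.6%), *PDGFRB* (57.5%) and *PDGFRL* (52.2%) had more GC than the median tested gene (47.9%), and *PDGFC* (43.7%), *PDGFRA* (42.9%) and *PDGFD* (41.2%) less. With the block and a correction for GC content, the log2 fold changes were 1.17 for *PDGFRB*, 1.75 for *PDGFRA*, 1.89 for *PDGFB*, 0.36 for *PDGFA*, 0.56 for *PDGFD*, 0.25 for *PDGFC* and 0.66 for *PDGFRL*. All kept their direction.

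How the variation divided between line and serum differed widely among the 7 genes. As shares of the summed squares of log2 CPM over the 8 libraries, serum took 97.4% for *PDGFRB* and 75.2% for *PDGFRA*. Line took 82.8% for *PDGFA*, 77.9% for *PDGFC*, 70.4% for *PDGFD* and 66.5% for *PDGFB*. *PDGFRL* was divided 37.1% to line and 36.2% to serum. These shares are descriptions of 8 libraries, and line has 3 degrees of freedom against 1 for serum. Leaving out each line in turn was added after the data were seen. For *PDGFB* the larger share turned on WT4: without that line, line took 12.7% and serum 85.2%, whereas line took 65.6% to 75.2% without one of the others. For *PDGFRL* serum took the larger share without WT1, WT2 or WT4 and line without WT3, so neither led. In each of the 4 settings line took the larger share for *PDGFA*, *PDGFC* and *PDGFD*, narrowly for *PDGFC* without WT3 (40.7% against 38.8%), and serum for *PDGFRB* and *PDGFRA*. WT4 had the lowest *PDGFA* and *PDGFB* in both conditions and the highest *PDGFC*, *PDGFD* and *PDGFRA* in both. The log2 *PDGFB* level of WT4 minus the mean of the other lines was -2.90 with serum and -3.5 without.

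By mean RPKM with serum, the order was *PDGFA* (1.63), *PDGFRB* (0.933), *PDGFD* (0.851), *PDGFC* (0.823), *PDGFB* (0.373), *PDGFRL* (0.360) and *PDGFRA* (0.0742). Without serum it was *PDGFA* (2.54), *PDGFRB* (2.34), *PDGFB* (1.68), *PDGFD* (1.17), *PDGFC* (0.963), *PDGFRL* (0.564) and *PDGFRA* (0.251). *PDGFB* moved from the fifth place to the third. The first place of *PDGFA* without serum rested on WT1 and WT2: its mean was 2.00 RPKM without line WT1 and 2.24 without line WT2, against 2.32 and 2.26 for *PDGFRB*. With the longest transcript as length in place of merged exons, *PDGFA* stood at 2.73 RPKM with serum and 4.24 without. In both conditions the ranges of neighbours over the 4 lines overlapped, except *PDGFRL* and *PDGFRA*, so that was the step larger than the spread over lines. Within lines, *PDGFC* was above *PDGFB* in all 4 with serum, as *PDGFRL* was above *PDGFRA* in all 4 in both conditions, and the other neighbours changed order in at least 1 line. All 7 means lay under the median of tested genes, 2.74 RPKM with serum and 2.93 without.

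As these genes also mark stromal cells, markers of other cell types were counted. The 6 pericyte and smooth muscle markers summed to 11.3 to 15.8 CPM with serum and 15.8 to 18.6 CPM without. Of the 4 tested *ACTA2* rose (1.02 to 2.11 CPM on average), joined by *MYH11* with the line as a block (log2 fold change 0.45). The other tested markers were not called in either fit: *RGS5* was lower (1.315 to 1.036 CPM, log2 fold change -0.35) and *ABCC9* slightly higher (8.66 to 9.51 CPM, 0.13). *DES* and *KCNJ8* were at or near 0, with at most 4 and 1 counts. The 5 fibroblast markers summed to 5.46 to 9.56 CPM with serum and 5.91 to 8.63 without, 0 of the 3 tested were called without a block, and *COL1A2* and *COL3A1* had at most 7 and 6 counts. The 3 leukocyte markers summed to at most 0.205 CPM, the 2 endothelial markers to at most 1.87 and the 2 keratinocyte markers to at most 21.7, and 0 of the 4 tested were called by edgeR. With the line as a block the fibroblast marker *DCN*, a matrix proteoglycan gene, rose (1.04 to 1.94 CPM on average, log2 fold change 0.90, edgeR adjusted p = 0.0125). In that fit the other tested fibroblast markers were not called: *LUM*, the most abundant, was lower (4.56 to 3.62 CPM, -0.31) and *COL1A1* higher (1.43 to 1.61 CPM, 0.18). The block called 0 of the endothelial and keratinocyte markers. Without a block, in the fibroblast, endothelial and keratinocyte lists 0 genes had an unadjusted p under 0.05, and 0 were called by DESeq2 or limma voom. The part of such cells in the PDGF values was not tested.

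Genes that act with PDGF ligands and receptors moved in both directions. Of 37 listed, 34 were tested, and 6 rose, 5 fell and 23 did not pass (edgeR, Benjamini-Hochberg adjusted p under 0.05). The 32.4% past the threshold stands beside 25.1% of all tested genes, and the median log2 fold change of the list was 0.10. Under upper-quartile scaling 8 rose and 2 fell, beside 4351 of 17671 tested genes called. With the line as a block 13 rose and 8 fell, beside 45.7% of all tested genes called. The count without a block depended on the libraries, and so did that over all tested genes. It was 3 of 34 without line WT1, beside 1589 of 18104 tested genes. Without WT2 or WT3 it was 4, beside 1975 of 17464 and 1873 of 18050. Without WT4 it was 15, beside 5631 of 17756. Leaving out single libraries gave 5 without serum WT1 and 6 without serum WT3 or serum-free WT4. It gave 7 without serum WT2 or serum-free WT3, and 13 without serum WT4. Over all genes those single-library fits gave 2842 to 6128 calls.

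Of the 5 tested ligand-activating proteases 0 were called by edgeR, beside 25.1% of all tested genes. Also, 0 had an unadjusted p under 0.05, and 0 were called by DESeq2 or limma voom. *FURIN*, which cuts PDGF-A and PDGF-B, had 152 ± 49.9 CPM with serum and 163 ± 45.4 without (SD, n = 4), and *PLAT*, whose product tPA cuts PDGF-C, had 103 ± 28.6 and 133 ± 44.0 CPM. *PLAT* was past the threshold with the block (log2 fold change 0.35). *PLAU* and *ST14* had too few counts to be tested. Of the 4 ligand-binding genes and co-receptors 1 was called (25%, beside 25.1% of all tested genes). *LRP1*, a scavenger receptor that associates with PDGFRB, rose from 70.1 ± 11.8 to 108 ± 9.92 CPM (SD, n = 4). Its log2 fold change was 0.62 ± 0.12 (SE, edgeR adjusted p = 0.00629). The neuropilins *NRP1* and *NRP2* and the PDGF-binding matrix protein gene *SPARC* did not pass, with log2 fold changes of 0.20, 0.35 and 0.02, and both neuropilins did with the block.

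Of the 19 tested adaptors and enzymes that act at the receptors, 4 rose and 4 fell (42.1%, beside 25.1% of all tested genes). The transcription factor gene *STAT5B* rose by a log2 fold change of 0.57 ± 0.07 (SE, edgeR adjusted p = 0.00119), and *STAT5A* by 0.52 ± 0.08 (SE, edgeR adjusted p = 0.00262). *GRB2*, the adaptor that links receptors to RAS, fell from 164 ± 2.20 to 133 ± 3.58 CPM (SD, n = 4), with a log2 fold change of -0.30 ± 0.05 (SE, edgeR adjusted p = 0.00475), which missed the threshold without line WT1 (-0.28, adjusted p = 0.0541). The other calls, named after their values were seen, were *SRC* (0.46) and *GAB1* (0.44) upward and *CRK* (-0.23), *CRKL* (-0.22) and *PIK3CB* (-0.23) downward. In fits without a block these 5 calls were lost without line WT1, WT2 or WT3, where calls over all genes fell from 4434 to between 1589 and 1975. *CRK* (-0.17), *CRKL* (-0.16) and *PIK3CB* (-0.16) were also lost under upper-quartile scaling, and all of these 3 without the filter on low counts. *PIK3CB* was lost too where 10 counts were required in every library. With the line as a block all 5 passed. With the GC correction added, *PIK3CB* (-0.10) did not pass, and *SRC* passed at 0.275. Without line WT1 no pathway gene was called downward. *GRB2*, *CRK*, *CRKL* and *PIK3CB* were lower without serum in all 4 lines, and *STAT5A*, *STAT5B*, *SRC* and *GAB1* higher in all 4. The block raised this to 8 up and 5 down, where it called 45.7% of all tested genes, the additions being *FYN* (0.39), *STAT3* (0.39), *NCK2* (0.24) and *PLCG1* (0.18) upward and *YES1* (-0.25) downward.

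Of the 6 phosphatases and ubiquitin ligases that act on the receptors, 1 rose and 1 fell (33.3%, beside 25.1% of all tested genes). *PTPN11*, the gene of the phosphatase SHP2, had a log2 fold change of -0.36 ± 0.09 (SE, edgeR adjusted p = 0.0227), and *CBLB*, a ubiquitin ligase gene, one of 0.40 ± 0.12 (SE, edgeR adjusted p = 0.0410). Without a block both calls depended on the libraries. *PTPN11* missed the threshold in 7 of 12 settings with libraries left out and *CBLB* in 9 of 12. Their values ran from -0.44 to -0.31 and from 0.31 to 0.46. Those 12 settings did not pair the libraries of a line. With the line as a block and all libraries both passed (-0.35, edgeR adjusted p = 9.11e-05, and 0.40, edgeR adjusted p = 0.00035). *PTPN11* was lower without serum in all 4 lines and *CBLB* higher in all 4. *PTPN11* was lost without serum WT1, WT2 or WT3, serum-free WT4 or line WT1, WT2 or WT3. *CBLB* passed without serum WT2, serum-free WT4 or line WT4, and was lost in the other 9. The fit with the line as a block, which called 45.7% of all tested genes, also called *PTPN2* (-0.32) and *CBL* (-0.19), both downward.

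Of 15 relatives of the PDGF system (VEGF ligands and receptors, class III receptors and their ligands), 9 were tested, 0 rose and 2 fell by edgeR (22.2%, beside 25.1% of all tested genes). At an unadjusted p under 0.05, and by DESeq2 or limma voom, also 0 rose. *VEGFA*, the vascular growth factor gene, fell from 69.8 ± 6.49 to 40.3 ± 2.64 CPM (SD, n = 4), with a log2 fold change of -0.79 ± 0.08 (SE, edgeR adjusted p = 0.000914), past the threshold in all 20 alternatives. *KITLG*, which encodes the ligand of KIT, had 9.09 ± 1.91 CPM with serum and 5.78 ± 1.30 CPM without (SD, n = 4), with a log2 fold change of -0.65 ± 0.20 (SE, edgeR adjusted p = 0.0400). It passed in 3 of the 12 settings with libraries left out, those without serum-free WT2, serum WT4 or line WT4. The receptor genes *KIT*, *FLT3* and *FLT4* had too few counts to be tested. With the line as a block 3 rose and 3 fell, where it called 45.7% of all tested genes. They were *FLT1*, *KDR* and *CSF1* upward (0.37, 0.35 and 0.41) and *VEGFC* (-0.35) beside *VEGFA* and *KITLG* downward.

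**Figure D4:**
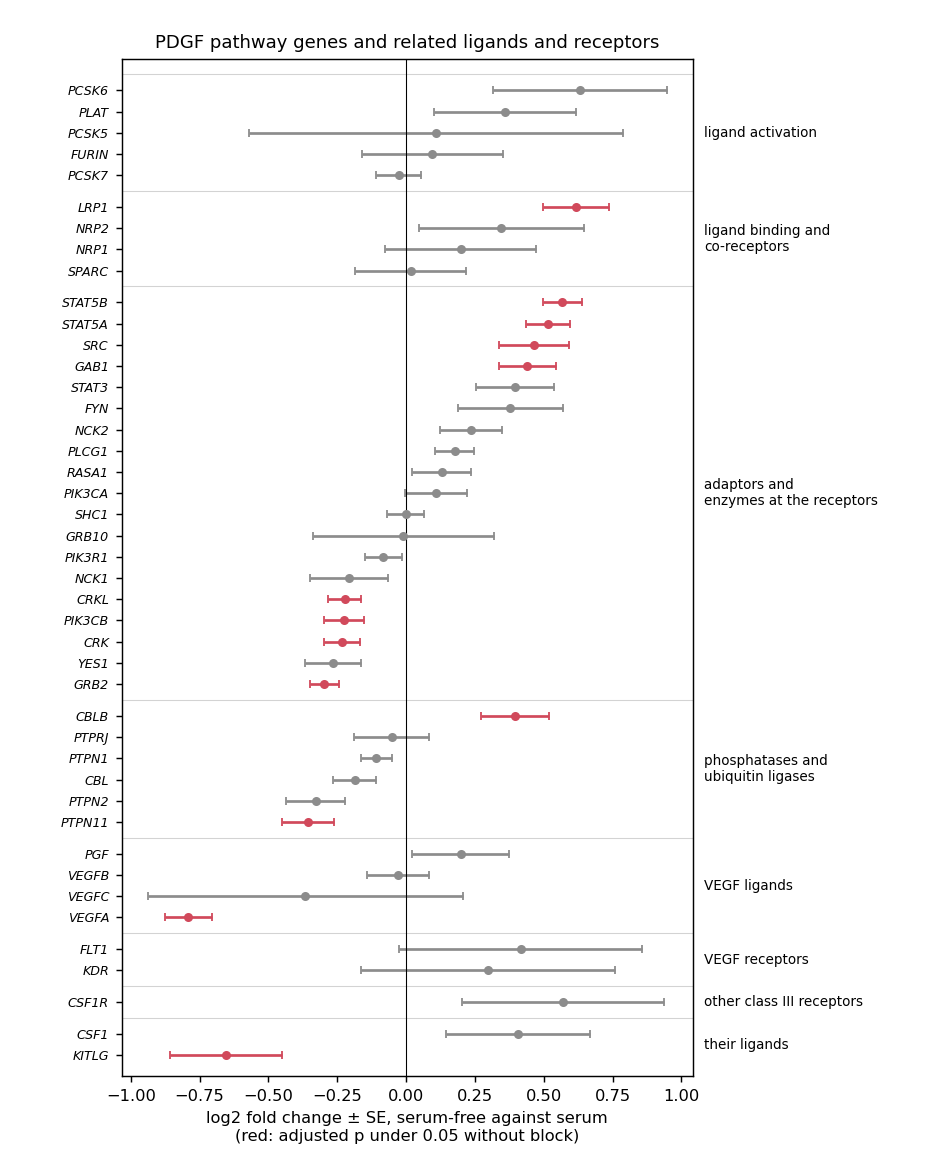
Fitted log2 fold change ± SE, serum-free against serum, of the 34 tested pathway genes and the 9 tested related genes, grouped by role, with red for an adjusted p under 0.05 without a block. The red points fall on both sides of 0, from *VEGFA* at -0.79 to *LRP1* at 0.62.

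The genes whose log2 CPM followed each member most closely over the 8 libraries were sought in 11527 protein-coding genes, each averaging 100 counts or more. The 8 points share 4 lines and 2 conditions, so these Pearson r values are descriptions. *PDGFRB* was followed by *MAPK8IP3* (r = 0.994), *PRRT2* (0.992) and *PEX5* (0.989). *PDGFB* was followed by *SLC16A3* (r = 0.979), *TMEM154* (0.977) and *CCL2* (0.975), and *PDGFA* by *CAMKK1* (r = 0.986), *DOCK10* (0.969) and *FSTL3* (0.967). For *PDGFD* they were *RHOU* (r = 0.990), *MDK* (0.971) and *JADE2* (0.965), and for *PDGFC* *PHF1* (r = 0.935), *BICD1* (0.932) and *RNF182* (0.932). No gene was listed for more than 1 member. *PDGFRA* and *PDGFRL* had a mean under 100 counts and were left out.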

How the data were processed

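The A375 libraries, 4 per condition, were grouped by the submitters' labels. The authors deposited, for each gene, the raw counts of reads as whole numbers, made with HTSeq and not normalized. The submitters' processing notes also name cutadapt, TopHat2 2.0.11 and GRCh38. The strand setting and annotation release are not given in the sources used here. The labels describe ribosomal RNA depletion and paired reads of 100 bases. The hg19 alignments and Cufflinks values that the paper's methods describe were not used.

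Symbols, merged exon lengths and GC content came from GENCODE lifted to GRCh37, matched by identifier for 55604 of 58051 genes. Positions came from RefSeq on GRCh38. Lengths from another build can shift RPKM levels but not fold changes. The test of serum-free against serum was edgeR 4.0.16's quasi-likelihood test (R 4.3.3, robust, no block) after filterByExpr and TMM scaling, with Benjamini-Hochberg adjustment over all 17671 tested genes and a threshold of 0.05. The fit was tested on simulated data. Log2 CPM values used a prior count of 2. With total counts of 29759279 to 73341551, a member with few counts is less precise, and this enters its SE.

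The line number pairs the libraries, as both of a pair come from the same line: deviations from the group means correlated at 0.403 to 0.604 within a line and at most 0.126 between lines. The fit with the line as a block is given beside the results whose calls it changes. All lines are A375, so p-values measure only the spread between these lines and cultures. No pair of libraries of the same condition was a duplicate, and pairs across conditions were not checked.

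Alternatives were the block, the block with a GC correction, DESeq2 1.42.0, limma 3.58.1 voom, other scalings and filters, other lengths and scales for levels, and leaving out each library or line. A length from exon bases shared with no other gene and line and serum shares without each line were added after the data were seen. The members and gene lists were chosen with earlier results of these data known. Named genes were the 7 members, the 3 pathway genes per role with the smallest p among those past the threshold, every related gene past it, the 3 closest genes per member by Pearson r, and genes that overlap a member. PECAM1 was not used among the endothelial markers.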

Additional observations from a re-analysis of the deposited data

How the results depend on the processing

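All 7 PDGF genes kept a positive log2 fold change in every setting that gave a value, 19 for *PDGFB* (absent where at least 10 counts were required in every library) and 20 for each other gene. For *PDGFRB* it ran from 1.17 to 1.42. The contrast chose the members, so this is no sign of stability. With the replicate block, calls rose from 4434 to 8067 over all genes, from 2 to 6 among the members, from 11 to 21 in the pathway list and from 2 to 6 among the related genes. With the replicate block and a GC correction they were 8153, 5, 22 and 6. Leaving out libraries gave 1589 to 6128 calls over all genes, 1 to 3 among members, 3 to 15 in the pathway list and 1 to 2 among related genes. Over the same settings the log2 fold change ran from 0.29 to 0.92 for *PDGFA*, from 0.06 to 0.39 for *PDGFC*, from 0.40 to 0.94 for *PDGFRL*, from 1.73 to 2.61 for *PDGFB*, from 0.20 to 0.62 for *PDGFD* and from 1.40 to 1.95 for *PDGFRA*. Upper-quartile scaling left 1 related gene, *VEGFA*, and turned the split over all genes from 1957 higher and 2477 lower to 2508 and 1843; *CBLB* was lost under voom (0.38). On the TPM scale all 7 members had a mean of at least 1 without serum, against 4 in RPKM. The causes were not tested. Depth limits *PDGFRA*, *PDGFRL* and the *PDGFB* of WT4 most, as these rest on as few as 21, 25 and 6 counts.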
